A study of Mus musculus with 6 samples.

Results

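The genes described here belong to the glutamate system and were named from the count rows by symbol: the AMPA receptor subunits Gria3 and Gria1, the SLC1 carriers Slc1a1, Slc1a3, Slc1a4 and Slc1a5, and the enzymes Glul and Glud1. Of these 8 genes, 7 were found among the 28293 genes counted, and all 7 passed the low-count filter that left 15081 genes for testing. Slc1a1 was not analysed here. The set was chosen by the counts described here, since Gria3 and Slc1a3 were among the largest decreases between the genotypes, so the differences of the members are given as a description and without p-values. Gene expression was measured by RNA-seq of polyadenylated RNA in 3 libraries of Lap2alpha KO cells and 3 libraries of WT cells. All cells were mouse dermal fibroblasts grown in DMEM with 10% fetal calf serum. LAP2alpha is a nucleoplasmic, lamin A-binding isoform made from the Tmpo gene. The labels do not say whether the replicates are separate cultures, nor whether the KO or the WT cells are a clone. The p-values therefore cover no more than the spread among the 6 libraries. Any other difference between the KO and WT cells cannot be told apart from the loss of LAP2alpha.

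Glutamate is the main excitatory transmitter of the brain and, in every cell, a hub of nitrogen metabolism. Ionotropic receptors such as the AMPA and kainate types are channels opened by glutamate. SLC1 carriers move acidic amino acids (Slc1a1, Slc1a3) or small neutral amino acids including glutamine (Slc1a5) and alanine, serine and cysteine (Slc1a4) across the plasma membrane. Inside the cell, glutamine synthetase (Glul) makes glutamine from glutamate and ammonia, and glutamate dehydrogenase (Glud1) links glutamate to the citric acid cycle through 2-oxoglutarate.

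The KO libraries held 25768678 to 27281473 counts and the WT libraries 22159339 to 26553616 counts. Tmpo, whose count sums all LAP2 isoforms, had 135.1, 121.9 and 131.3 CPM (counts per 1000000 counts of the library) in KO and 254.2, 248.9 and 252.3 CPM in WT, a log2 fold change of −1.04 (SE 0.0549, edgeR quasi-likelihood adjusted p = 4.9e-08). Genes with an edgeR Benjamini-Hochberg adjusted p under 0.05 are described as called, and 75.1% of all tested genes were called, 37.7% higher and 37.5% lower in KO. Mitochondrially encoded genes took 3.76 to 4.46% of counts in KO and 1.99 to 2.45% in WT. Of 12 fibroblast markers, all had counts in both groups, but Lum had only 5 over the WT libraries. They summed to 24300 to 25800 CPM in KO and 7270 to 7940 CPM in WT. Col1a2 alone had means of 10950 CPM in KO and 1788 CPM in WT. Among the 12 markers 10 were called higher, Thy1 was called lower (log2 fold change −0.75) and Fn1 was not called.

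Of the 7 measured members, 4 were called higher in KO and 3 lower, against the 37.7% and 37.5% of all tested genes. For 6 of the 7 the genotypes were fully separated, 4 with every KO library above WT and 2 with every KO library under it. Over all tested genes 76.8% were separated, 42.2% with KO above and 34.6% with KO under WT. A called difference of at least 2-fold was seen for 4 members (Gria1 and Glul higher, Gria3 and Slc1a3 lower) and for 28.1% of all tested genes. Glul lay at this cut, with log2 fold changes of 0.96 to 1.08 over the main and alternative fits. The choice of members used these values, and Gria3 and Gria1 passed the low-count filter through a single genotype, so nothing is read from the shares. The members ranged from no reads at all in KO (Gria3) to a difference within the range of the libraries (Slc1a5). By fitted fold change Gria3 ranked first and Slc1a3 ranked 39 among the decreases of the 15081 tested genes. For a gene with 0 counts in a genotype the fitted value depends on the fit. For Gria3 it was −12.4 in edgeR and −10.5 in limma-voom on the log2 scale, so ranks that involve such genes are approximate. At the other end, 83.8% of tested genes changed more than Slc1a5, 81.1% more than Glud1 and 50.1% more than Slc1a4.

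**Figure D1:**
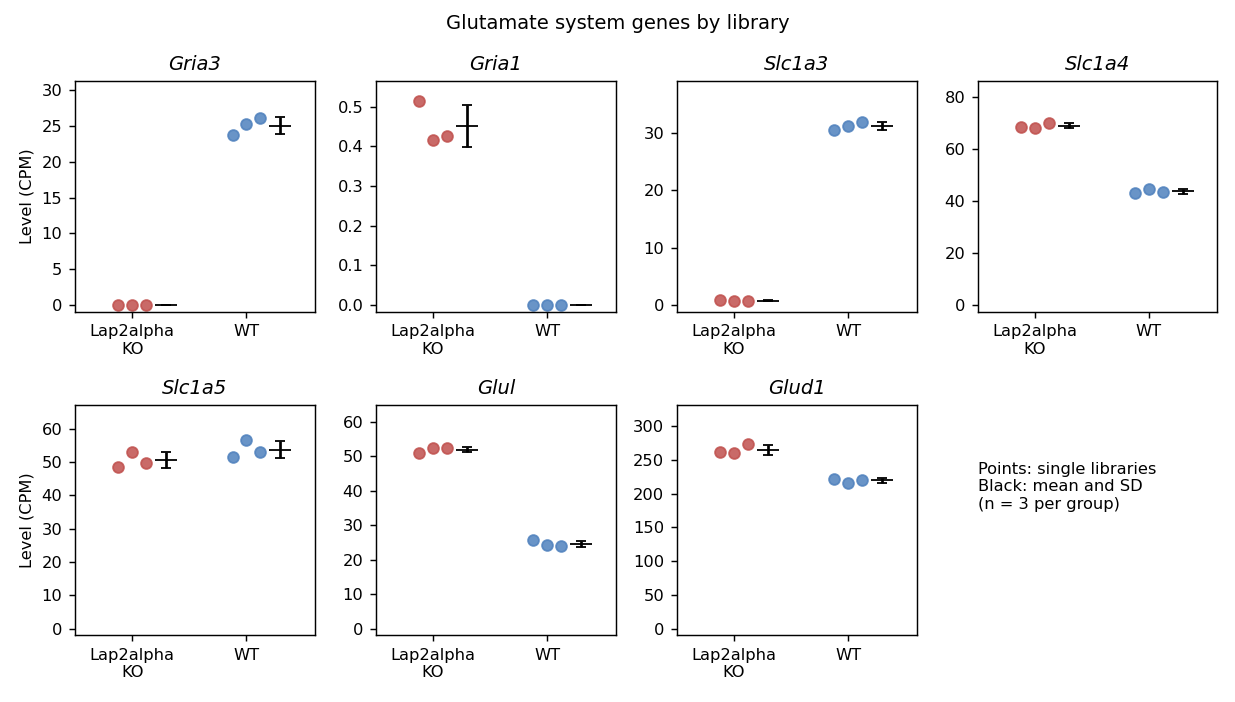
Level in CPM (vertical axes, linear, each scaled to its gene) of the 7 measured members in Lap2alpha KO and WT libraries; points are single libraries and black marks the mean and SD (n = 3 per group). Gria3 lies at 0 in every KO library, Slc1a3 falls under 1 CPM in KO, and Slc1a5 is the member whose groups overlap.

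Gria3 encodes an AMPA receptor subunit and lies on the X chromosome at 41400854 to 41678601 on the plus strand of GRCm38, with 9 annotated transcripts, 4 of them protein-coding. It had 0 counts in each KO library and 526, 671 and 644 counts in the WT libraries, which is 23.7, 25.3 and 26.1 CPM. With 3 counts over the 3 libraries taken as the floor of a group, 0.0377 CPM in KO, Gria3 was at least 665-fold lower in KO. In WT, Gria3 was a gene of middling level, since 56.0% of tested genes had a lower mean CPM there. In bulk RNA, fewer cells with the transcript and less transcript per cell cannot be told apart.

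Gria1 encodes another AMPA receptor subunit and occupies chromosome 11, positions 57011387 to 57330244, plus strand. It differed in the other direction, with 14, 11 and 11 counts in the KO libraries and 0 counts in each WT library. The KO mean was 0.452 ± 0.0537 CPM (SD, n = 3), at least 11.1-fold above the WT floor of 0.0409 CPM. Its level in KO was far under that of Gria3 in WT: per kilobase of annotated exon, Gria1 in KO stood at 0.0747 ± 0.00888 CPM per kb and Gria3 in WT at 2.54 ± 0.122 CPM per kb (SD, n = 3 each).

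Of the 18 ionotropic receptor subunit genes listed, 12 were analysed here and 3 passed the filter. The third, beside Gria3 and Gria1, was Grik5, a kainate receptor subunit that needs a partner of another kainate class to form a channel. Grik5 rose to 52.3, 58.2 and 65.3 CPM in KO, against 24.9, 25.7 and 27.3 CPM in WT (edgeR log2 fold change 1.10, SE 0.0842, adjusted p = 7.6e-07). The other 9 subunits, from the kainate, NMDA and delta classes, held 0 to 8 counts in any library. Grik5 thus made up 98.5 ± 0.479% of the summed level (in CPM per kb) of the 12 analysed subunits in KO and 65.7 ± 0.520% in WT. Gria3 made up 33.3 ± 0.413% of this sum in WT (SD, n = 3 each). The sum itself was 11.5 ± 1.22 CPM per kb in KO and 7.64 ± 0.402 CPM per kb in WT. Of the 8 metabotropic, G protein-coupled receptors, 4 were analysed here, none was tested, and none exceeded 11 counts in a library.

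AMPA receptors work with auxiliary subunits and trafficking factors, and of 29 such genes 14 were tested. Among them 9 rose, 4 fell and Cnih2 was not called. That is 92.9% called, against 75.1% of all tested genes (37.7% higher and 37.5% lower). Their median log2 fold change was 0.50, where the median over all tested genes was 0.01. Cacng7, a transmembrane AMPA receptor regulatory protein (TARP), rose to 51.5 ± 3.10 CPM in KO, against 13.6 ± 0.417 CPM in WT (n = 3; edgeR log2 fold change 1.85, SE 0.0688, adjusted p = 4.9e-09). Cacng8, another TARP, rose to 1.22 ± 0.121 CPM in KO, against 0.148 ± 0.0352 CPM in WT. The postsynaptic scaffold gene Dlg4, which encodes PSD-95, rose as well, with 45.1 ± 0.290 CPM in KO and 15.5 ± 1.19 CPM in WT (log2 fold change 1.47). Cpt1c, a receptor-associated protein of the endoplasmic reticulum, rose by 1.51 and Porcn, better known as the Wnt acyltransferase, by 1.76 on the log2 scale. Abhd6, a lipase that binds AMPA receptors and limits their surface delivery, fell by 0.99 on the log2 scale, to 12.3 ± 0.322 CPM in KO, against 23.3 ± 1.56 CPM in WT. Cnih2, a cornichon auxiliary subunit, had 0.366 to 1.02 CPM in KO and 0.264 to 0.587 CPM in WT, with overlapping groups.

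Gria3 and Slc1a3 are best known from neurons and glia, so markers of those and of other cells of the skin were read beside them. The 9 neuron markers analysed here summed to 132 to 147 CPM in KO and 68.4 to 75.2 CPM in WT. Among them Tubb3, Nefm, Syt1 and Nefl rose and Map2 fell. Nefm, a neurofilament gene, held 2181 counts over the KO libraries and 75 over the WT libraries, Syt1 held 1068 over KO and 245 over WT, and Map2 held 535 over KO and 981 over WT. Snap25 and Elavl4 had 0 counts in KO, and 1 and 4 counts over the WT libraries. The 6 astrocyte markers analysed here summed to 137 to 149 CPM in KO and 98.2 to 121 CPM in WT, mostly from Sox9, which rose, and Gja1, which fell. Aldh1l1 rose, with 51, 79 and 70 counts in the KO libraries and 0 counts in each WT library, and Gfap held 5 to 11 counts per KO library and 0 to 2 counts per WT library. The 7 Schwann cell markers analysed here summed to 5.55 to 7.5 CPM in KO and 2.03 to 2.17 CPM in WT, while Erbb3 held 3 counts over the KO libraries and 18 over the WT libraries. The 5 melanocyte markers analysed here had overlapping sums of 3.65 to 5.13 CPM in KO and 2.52 to 4.47 CPM in WT. Of these Mitf rose and Dct fell, and the untested genes Tyr, Pmel and Mlana held 5, 13 and 0 counts over the KO libraries and 17, 25 and 5 over the WT libraries. Markers within these lists thus differed in both directions, and the part of such cells in the differences of Gria3 and Slc1a3 was not tested. Markers of 3 other types were also read. Their sums reached at most 6.49 CPM in KO and 8.62 CPM in WT for keratinocytes, and 0.880 CPM in KO and 1.47 CPM in WT for endothelial cells. Macrophage markers summed to 9.93 to 12.3 CPM in KO and 4.26 to 5.31 CPM in WT, mostly from Cd14. The untested macrophage genes Ptprc, Lyz2 and Aif1 held 0, 7 and 1 counts over the KO libraries and 1, 2 and 0 over the WT libraries. Of the tested genes, Csf1r and Cd14 (macrophage) were called higher and Cd68 was not called. Krt10 and Cdh1 (keratinocyte) and Cdh5 (endothelial) were called lower.

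Slc1a3, which encodes the sodium-coupled glutamate and aspartate carrier GLAST, occupies chromosome 15, positions 8634124 to 8710764, minus strand. It had 0.806, 0.679 and 0.699 CPM in KO and 30.5, 31.2 and 31.9 CPM in WT, a 44.9-fold decrease (log2 fold change −5.49, SE 0.104). Unlike Gria3, it kept a few reads, 22, 18 and 18 counts in the KO libraries, all above the floor of a single library (0.110 to 0.116 CPM). Every KO library was far under every WT library.

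Slc1a4, a carrier of alanine, serine and cysteine, occupies chromosome 11, positions 20302180 to 20332713, minus strand. It had 68.6, 68.03 and 69.97 CPM in KO and 42.9, 44.7 and 43.3 CPM in WT (log2 fold change 0.58, SE 0.0509). All 3 KO libraries lay above all WT libraries, with an SD of 1.00 CPM in KO and 0.917 CPM in WT. Slc1a5, a carrier of glutamine and other neutral amino acids, occupies chromosome 7, positions 16781340 to 16798274, plus strand. Its values overlapped, at 48.6, 53.1 and 49.8 CPM in KO and 51.6, 56.5 and 53.1 CPM in WT (log2 fold change −0.17, SE 0.0588). It was called lower, but not with upper-quartile scaling (log2 fold change −0.11), library totals alone (−0.09), without KO replicate 1 (−0.13) or without WT replicate 2 (−0.13).

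The balance between the carriers therefore differed between the genotypes. Shares were taken of the summed level, per kilobase of exon, of the 5 SLC1 carriers analysed here, out of 7 listed. Slc1a3 made up 0.287 ± 0.0318% of this sum in KO and 13.2 ± 0.415% in WT. Slc1a4 made up 58.9 ± 1.31% in KO and 40.2 ± 0.448% in WT, and Slc1a5 made up 40.6 ± 1.35% in KO and 46.5 ± 0.714% in WT (SD, n = 3 each). Slc1a4 over Slc1a5 was 1.45 ± 0.0788 in KO and 0.864 ± 0.0221 in WT, so the order of these 2 carriers was opposite in the 2 genotypes. The sum was 29.8 ± 0.475 CPM per kb in KO and 27.7 ± 0.872 CPM per kb in WT. Of the other family members analysed here, Slc1a2, the main glial glutamate carrier of the forebrain, held 2 to 8 counts per library and Slc1a7 held 0 to 3.

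**Figure D2:**
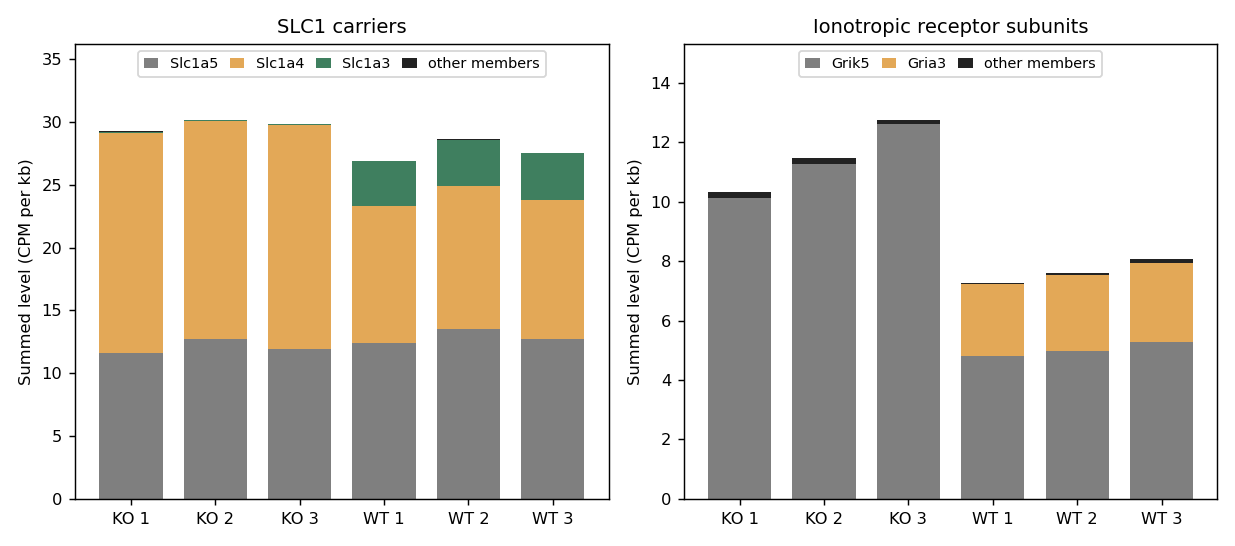
Stacked levels (CPM per kb of annotated exon, linear axis from 0) of SLC1 carriers (left) and ionotropic glutamate receptor subunits (right) in each Lap2alpha KO and WT library. The sums cover the 5 SLC1 carriers and the 12 receptor subunits analysed here. Slc1a3 takes 0.287% of the SLC1 sum in KO and 13.2% in WT. Gria3 takes none of the receptor sum in KO and 33.3% in WT.

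RefSeq promoter windows of 300 bases (250 before to 50 after the start, build GRCm38.p6) were found for 5 of the 8 genes: Slc1a1, Slc1a3, Slc1a4, Glul and Glud1. Gria3, Gria1 and Slc1a5 are the other three. The windows of Slc1a3 (chr15:8710758-8711057, minus strand), Slc1a4 (chr11:20332664-20332963, minus strand) and Glul (chr1:153899679-153899978, plus strand) are printed because these genes had the largest changes among those matched, in both directions. Capitals mark matches on either strand to 7 motifs: the GC box GGGCGG, the TATA box TATAAA, the E-box CACGTG, the AP-1 site TGANTCA, the CRE TGACGTCA, the amino acid response element TGATGNAA and the TEAD site GGAATG.
Slc1a3: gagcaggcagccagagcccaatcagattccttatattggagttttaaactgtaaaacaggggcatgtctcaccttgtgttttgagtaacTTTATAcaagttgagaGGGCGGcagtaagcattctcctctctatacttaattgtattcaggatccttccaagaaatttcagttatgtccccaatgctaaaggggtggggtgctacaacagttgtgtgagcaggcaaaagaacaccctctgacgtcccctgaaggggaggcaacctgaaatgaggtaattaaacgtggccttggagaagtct
Slc1a4: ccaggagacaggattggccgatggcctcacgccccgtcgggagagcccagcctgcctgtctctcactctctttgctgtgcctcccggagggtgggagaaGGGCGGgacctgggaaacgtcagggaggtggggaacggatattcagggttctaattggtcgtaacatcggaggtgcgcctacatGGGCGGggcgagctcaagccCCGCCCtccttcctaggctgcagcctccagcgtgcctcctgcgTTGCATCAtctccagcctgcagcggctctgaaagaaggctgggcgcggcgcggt
Glul: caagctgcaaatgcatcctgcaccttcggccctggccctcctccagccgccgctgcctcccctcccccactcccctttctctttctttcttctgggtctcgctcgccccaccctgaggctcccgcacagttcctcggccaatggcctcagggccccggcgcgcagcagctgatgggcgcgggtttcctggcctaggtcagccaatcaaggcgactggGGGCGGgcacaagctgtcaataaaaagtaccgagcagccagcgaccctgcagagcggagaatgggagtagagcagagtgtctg
The 3 windows differ most in their CG content. Slc1a3 has 3 CG dinucleotides and 45.3% G and C, Slc1a4 has 21 and 65.0%, and Glul has 17 and 64.3%, where the median of 32851 windows is 7 and 52.7%. A GC box occurs in all 3 windows and in 35.7% of all windows. Slc1a3 also holds a TATA-box match on the opposite strand, 161 bases before the start, and 13.6% of all windows hold one. Slc1a4 holds the amino acid response element on the opposite strand (printed as TTGCATCA), beginning 4 bases before the start, a match present in 3.97% of all windows. No match to the E-box, AP-1, CRE or TEAD letters was found in these 3 windows, and none of the matches overlap each other.

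Among 20 other carriers of glutamate, glutamine and their exchange partners, 14 were tested, 6 rose, 6 fell and 2 were not called (median log2 fold change 0.07), so 85.7% were called, against 75.1% of all tested genes. Slc25a13, the mitochondrial aspartate-glutamate carrier citrin, rose the most, to 7.99, 7.09 and 6.21 CPM in KO, against 0.226, 0.264 and 0.324 CPM in WT (edgeR log2 fold change 4.60, SE 0.209, adjusted p = 1.7e-08). The vesicular glutamate carrier gene Slc17a8 rose to 1.10 ± 0.166 CPM in KO, against 0.147 ± 0.0508 CPM in WT (n = 3). The lysosomal amino acid carriers Slc38a9 (log2 fold change 1.17) and Slc38a7 (0.73) rose. Slc38a1, a glutamine importer of the plasma membrane, fell to 41.4 ± 2.76 CPM in KO, against 102.5 ± 3.35 CPM in WT (edgeR log2 fold change −1.38, SE 0.0641, adjusted p = 2e-08). Slc3a2, the heavy chain shared by the cystine-glutamate exchanger and the large neutral amino acid carriers, fell to 184 ± 11.1 CPM in KO, against 281 ± 11.1 CPM in WT. Slc38a2, the most abundant glutamine carrier of the list, had 474 ± 37.8 CPM in KO and 473.5 ± 26.1 CPM in WT and was not called, nor was the cystine-glutamate exchanger Slc7a11 (44.6 ± 4.16 CPM in KO, 35.9 ± 6.50 CPM in WT).

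Glul, glutamine synthetase, occupies chromosome 1, positions 153899944 to 153909723, plus strand, and its promoter window is the last of those printed above. It had 51.1, 52.3 and 52.5 CPM in KO and 25.7, 24.1 and 24.05 CPM in WT (log2 fold change 1.00, SE 0.0573). The KO libraries lay close together, 2.0-fold above WT. Glud1, glutamate dehydrogenase, occupies chromosome 14, positions 34310727 to 34345265, plus strand, and was the most abundant member, with 261, 260.5 and 274 CPM in KO and 222, 216 and 220.1 CPM in WT (log2 fold change 0.20, SE 0.0488). All KO libraries were above all WT libraries, by a small margin. Per kilobase of exon, Glul over Glud1 was 0.249 ± 0.00567 in KO and 0.142 ± 0.004 in WT (SD, n = 3 each). Both genes have near-identical processed pseudogenes, to which reads can be assigned in error: Glud-ps held 23 to 32 counts per KO library and 17 to 20 per WT library, and Glns-ps1 held 5 to 9 counts per KO library and 0 to 3 per WT library. Glud1 itself held 21085 counts over the KO libraries and 16080 over the WT libraries, and Glul held 4135 over KO and 1803 over WT. Glul also shares 116 exonic bases with Teddm2 on the opposite strand, which held 4 to 6 counts per KO library and 0 to 2 per WT library.

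Of 38 listed genes of glutamate and glutamine metabolism 31 were tested, 18 fell, 9 rose (Glul and Glud1 included) and 4 were not called (median log2 fold change −0.43). Thus 87.1% were called, where over all tested genes 75.1% were, 37.7% higher and 37.5% lower. Ppat, which takes the amide of glutamine in the committed step of purine synthesis, fell to 26.8 ± 1.44 CPM in KO, against 96.8 ± 4.91 CPM in WT (n = 3; edgeR log2 fold change −1.93, SE 0.0640, adjusted p = 2.4e-09). Ctps, which makes CTP from UTP and glutamine, fell to 54.1 ± 2.09 CPM in KO, against 187 ± 2.13 CPM in WT. Aldh18a1, which commits glutamate to proline synthesis, fell to 133 ± 0.928 CPM in KO, against 357 ± 16.1 CPM in WT. Psat1, a transaminase of serine synthesis that uses glutamate, fell by 1.38 and Got1, the cytosolic aspartate transaminase, by 1.57 on the log2 scale. Prodh, which starts the breakdown of proline toward glutamate, fell to 0.526 ± 0.0981 CPM in KO, against 2.09 ± 0.110 CPM in WT. Enzymes of related steps rose, chosen here after their values were seen: Ctps2, a second CTP synthase gene, by 0.65, Pycr1, of proline synthesis, by 0.47, and the glutamine-using enzymes Gfpt1 and Asns by 0.76 and 0.44 on the log2 scale. Among the genes not called, Oat had 123 ± 0.904 CPM in KO and 122 ± 0.286 CPM in WT, Gclm had 77.9 ± 7.42 CPM in KO and 78.03 ± 8.36 CPM in WT, and Bcat2 had 23.9 ± 1.48 CPM in KO and 20.2 ± 0.983 CPM in WT.

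**Figure D3:**
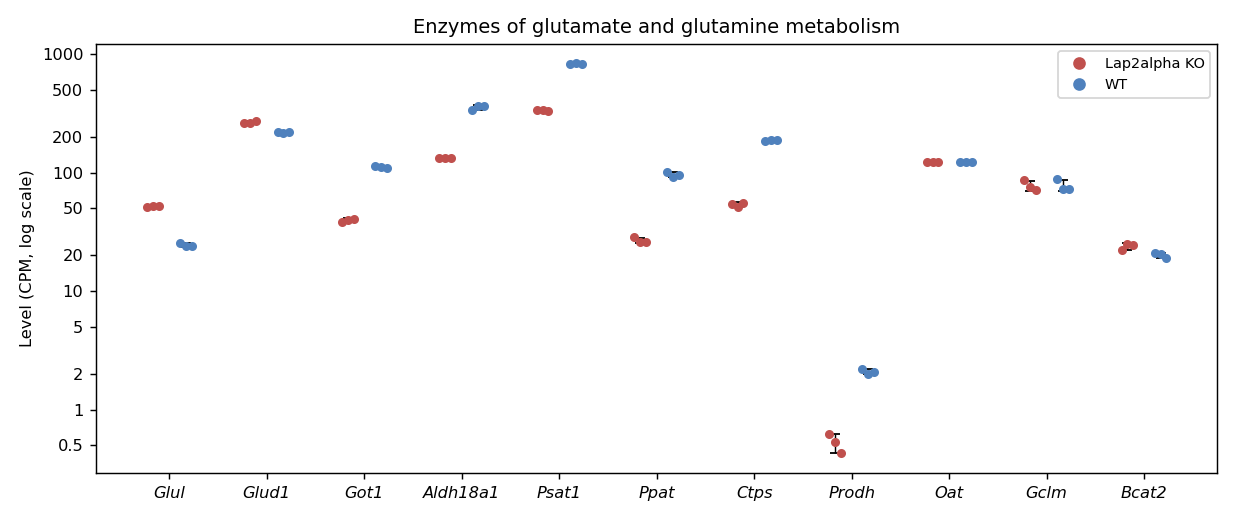
Level in CPM (log axis) of Glul, Glud1 and 9 further enzymes of glutamate and glutamine metabolism; points are single Lap2alpha KO and WT libraries and bars are the SD around the mean (n = 3 per group). Glul and Glud1 are higher in KO, and the 6 enzymes from Got1 to Prodh are lower.

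Slc1a4 and Slc1a5 also belong to the group of genes induced by the transcription factor ATF4 during amino acid shortage. All 25 genes listed for that response were tested, of which 14 fell, 8 rose and 3 were not called (median log2 fold change −0.28). The share called was 88.0%, against 75.1% of all tested genes (37.7% higher and 37.5% lower). The serine and one-carbon enzymes Psph (−1.24), Shmt2 (−1.26) and Mthfd2 (−1.12) and the glutathione-degrading enzyme Chac1 (−1.18) fell, and the lipoprotein receptor gene Vldlr rose (2.09). Slc1a4 is one of the 8 that rose, and Slc1a5 is one of the 14 that fell, with the limits given above. Slc7a11, Cth (0.04) and Sesn2 (−0.20) were not called.

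**Figure D4:**
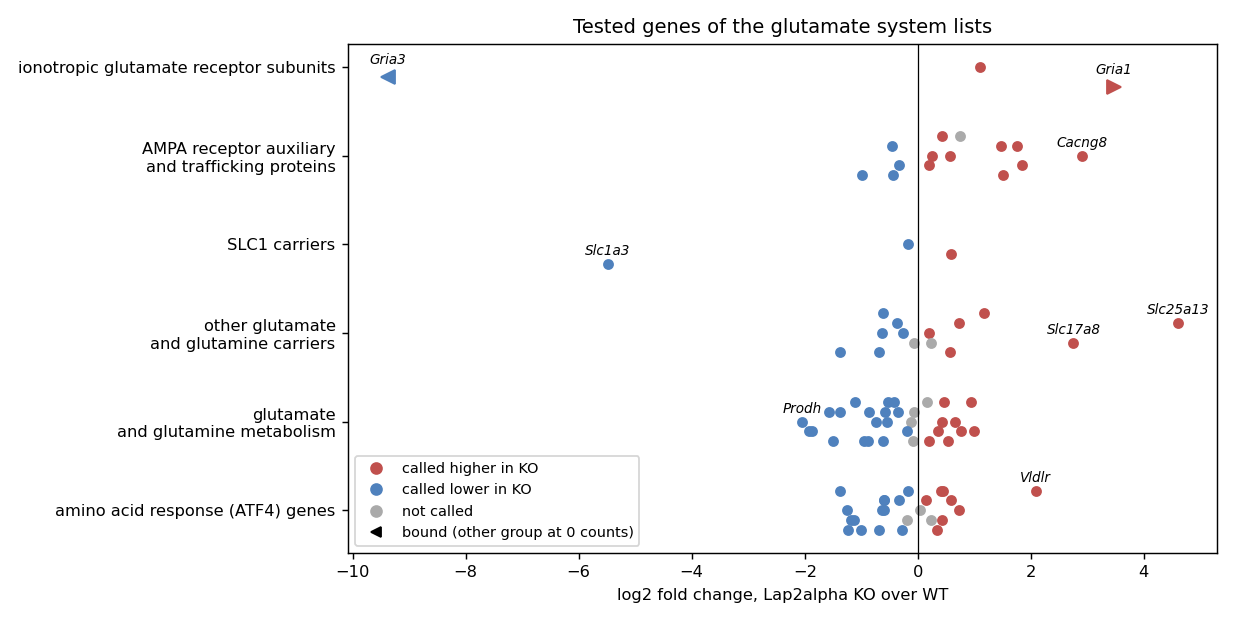
Log2 fold change, Lap2alpha KO over WT, of the tested genes of 6 glutamate-related lists (rows; genes spread vertically for legibility). Red and blue mark genes called higher and lower in KO, grey marks genes not called, and triangles mark Gria3 and Gria1 at the bounds of −9.38 and 3.47 set by the floor.

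Within 2 Mb of the start of Gria3, 3 other protein-coding genes were tested, Thoc2, Xiap and Stag2, and none was called. The nearest, Thoc2, lies 116 kb beyond the end of Gria3 and had 124 ± 13.4 CPM in KO and 123 ± 9.22 CPM in WT (log2 fold change −0.07, edgeR adjusted p = 0.44). On the other side the nearest tested protein-coding gene, C1galt1c1, lies 2770.0 kb away and fell by 0.46 on the log2 scale. Around Slc1a3, 14 other genes were tested within 2 Mb, of which 8 fell, 5 rose and 1 was not called. Over all tested genes 75.1% were called, 37.7% higher and 37.5% lower. The log2 fold changes of the 14 genes were −2.07 to 2.33. The lowest belonged to the adjacent gene Ranbp3l, 257 kb away, with 0.869 ± 0.129 CPM in KO and 3.45 ± 0.872 CPM in WT (edgeR adjusted p = 1.7e-05). The neighbour on the other side, Nipbl, the cohesin loader, rose by 0.45.

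**Figure D5:**
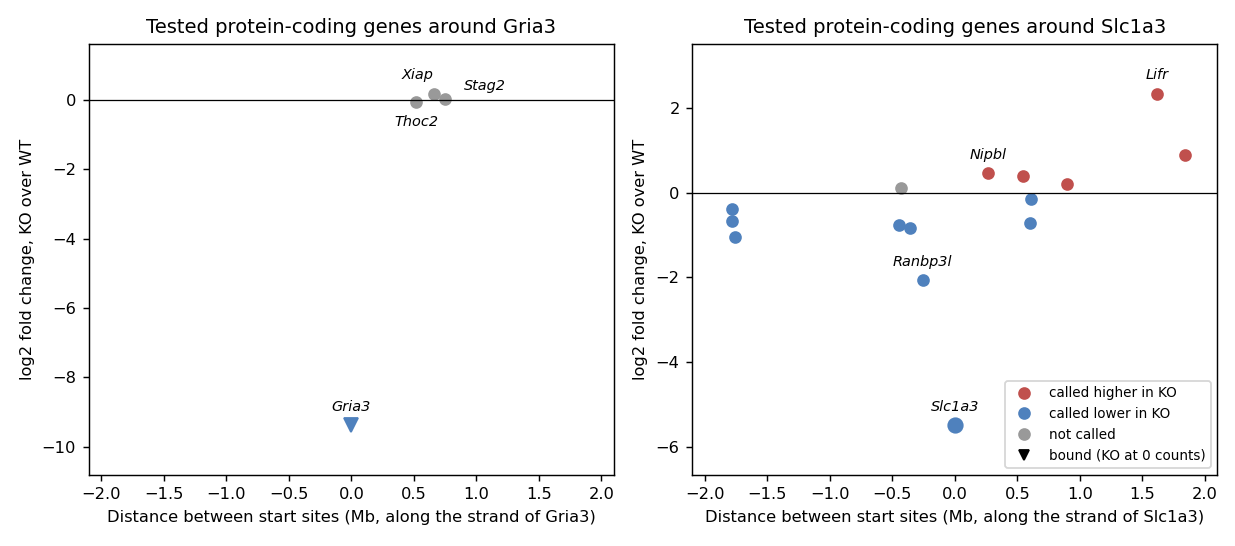
Log2 fold change, Lap2alpha KO over WT (vertical axis), of tested protein-coding genes against the distance of their start from that of Gria3 (left) or Slc1a3 (right), in Mb along the strand of that gene. Gria3 is drawn at its bound of −9.38, with 3 other genes, all on 1 side of it and none called. Slc1a3 lies at −5.49, and the 14 genes around it span −2.07 to 2.33.

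The nearest tested protein-coding genes of the other members did not share one direction. Slc1a4 rose beside Cep68 (0.76) and Sertad2 (0.17), both of which rose. On one side of Slc1a5 lies Ap2s1, which was not called (−0.14). Glul rose while Ier5 fell by 1.48, and Teddm1b was called lower (−1.50) at under 1 CPM with overlapping groups. Glud1 lies between Shld2, not called (0.01), and Sncg, which fell by 2.13. Gria1 lies between G3bp1, which fell by 0.49, and Fam114a2, which rose by 0.77.

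The genes most like each member over the 6 libraries were sought among 11728 tested protein-coding genes by the root mean square (RMS) difference of log2 CPM, each gene centred on its own mean. A prior count of 2 was added before the logarithm, so for Gria3, Gria1 and Slc1a3, which had few or no counts in one genotype, the value depends on that prior and on depth, and a small RMS does not mean an equal fold change. Gria3 was closest to Cxadr, a junctional adhesion protein, with an RMS of 0.875, and to Eid2 (1.10). Slc1a3 was closest to Rab29 (0.0851), a small GTPase with 0 counts in KO and 3.03 ± 0.185 CPM in WT (58 counts over the KO libraries for Slc1a3), and to the growth factor gene Pdgfd (0.155). Slc1a4 was closest to Rsrp1 (0.0201) and Hadha (0.0215), Slc1a5 to Mus81 (0.0228) and Adat2 (0.0268), Glul to Elmo1 (0.0268) and Babam2 (0.0322), and Glud1 to Ctbp1 (0.0167) and Arhgap35 (0.0212). Gria1 was closest to Klhl24 (0.0505) and Opcml (0.0510).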

How the data were processed

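The authors deposited raw counts per Ensembl gene, 1 file for each of 6 libraries (3 Lap2alpha KO, 3 WT). STAR 2.7.10b and the build GRCm38 are named in the submitters' processing notes, and the libraries were directional and poly(A)-selected, per the labels' protocols. The counting program, its annotation, strand setting and treatment of multi-mapping reads were not given in the sources used here.

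Symbols, positions and exonic lengths came from GENCODE M21 (GRCm38), which held 28230 of the 28293 identifiers. CPM is a count divided by the library total, times 1000000. The genotypes were compared, KO over WT, in edgeR 4.0.16 (R 4.3.3) with TMM scaling, filterByExpr, a quasi-likelihood test and Benjamini-Hochberg adjustment over 15081 genes. SE is the absolute log2 fold change over the square root of F. The fit was tested on simulated counts, in which it recovered large changes more often than small ones, and genes simulated without a change made up a larger share of the calls than the nominal 0.05. Replicates of a group differed by more than sampling noise. Floors cover counting error only. Alternatives used DESeq2 1.42.0 and limma 3.58.1. Copies were found with BLAST (at least 90% identity over 200 bases).

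The members and the 7 gene lists and 8 marker lists were chosen with earlier results of these data known. From each list the text names the 6 called genes with the largest change and at least 1 CPM in the higher genotype, and the 3 most abundant genes not called, plus the neighbours and most similar genes of each member. Results for a few genes are not reported here.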

Additional observations from a re-analysis of the deposited data

How the results depend on the processing

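Each member kept its direction in every alternative that gave it a value (other scalings, other low-count filters, the DESeq2 Wald test, limma-voom, the replicate block and leaving out each library). Gria1 had no value when 1 CPM in 3 libraries was required. Slc1a5 lost its call in the 4 fits given above, with log2 fold changes of −0.22 to −0.09 over all fits. Glud1 ranged between 0.16 and 0.27, Slc1a4 between 0.55 and 0.66, Glul between 0.96 and 1.08, and Slc1a3 between −5.56 and −5.41.

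With a minimum of 2-fold, 2518 genes were called higher and 1715 lower, against 5678 and 5652 without it. In either direction, 28.1% of the 15081 tested genes were called with this minimum. Among the members, 2 were then called higher, of which Glul lay at the cut (log2 fold change 1.00). The same minimum left 5 higher and 0 lower of 14 tested AMPA auxiliary genes, and 0 higher and 1 lower of 3 tested SLC1 carriers. Of 14 tested other carriers, 3 were higher and 1 lower. Of 31 tested metabolic enzymes, 1 was higher and 7 lower, and of 25 tested ATF4 genes, 1 was higher and 6 lower. The count of lower SLC1 carriers was also 1 with upper-quartile scaling and with library totals alone, and 1 to 2 when a library was left out. With no low-count filter 2 ionotropic subunits were called lower and 1 metabotropic receptor higher, and with the DESeq2 Wald test 1 metabotropic receptor was higher. At 1 CPM in 3 libraries 1 ionotropic subunit was called higher.

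The labels do not say whether the replicate numbers pair the samples. Same-numbered libraries correlated at 0.147, −0.115 and 0.159 in their deviations from the group means, and differently numbered ones at −0.34 to 0.268. With 3 libraries per group these values cannot settle whether the samples are paired. With the replicate block 5832 genes were called higher and 5865 lower, and 4 members higher and 3 lower.

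Genes with a few counts, such as Gria1 and the receptors that failed the filter, are limited by depth, and their absence cannot be told from a level under the floor. The counts say nothing of isoforms or of protein.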
